A study of Arabidopsis thaliana with 12 samples.

Results

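The genes of tetrapyrrole synthesis and chlorophyll breakdown were examined in rosettes and roots of iron-deficient Arabidopsis. They are 47 loci, taken from a list of named pathway genes that sets no threshold on their values, out of 33607 genes in the deposited tables, and all 47 have a row in both tables. The list was drawn up with earlier results of these data known, so shares of members given beside those of all genes only describe. They were divided by branch into 16 genes of the common trunk, 14 of chlorophyll synthesis, 7 of heme and bilin synthesis and 10 of chlorophyll breakdown. The 12 libraries come from wild-type Col-0 plants, with 3 of Fe-deficient rosettes, 3 of control rosettes, 3 of Fe-deficient roots and 3 of control roots. All plants spent 10 days in vitro on complete ES medium with 1.5% sucrose, 25 to a plate, in continuous light at 50 µmol per square metre per second. The Fe-deficient plants were then kept for 72 h on ES medium without iron to which 100 µM FerroZine, which binds ferrous iron, had been added, and the control plants for 72 h on fresh complete medium. The labels do not say whether the 3 libraries of a group came from separate cultures, so the p-values measure the spread between these libraries, which may be technical.

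Tetrapyrroles are ring-shaped pigments and cofactors that plastids build from glutamate. Glutamyl-tRNA reductase sets the rate of the trunk, which ends at protoporphyrin IX. There the pathway forks: magnesium chelatase sends the ring towards chlorophyll, and ferrochelatase inserts ferrous iron to make heme, from which heme oxygenases and HY2 make the chromophore of phytochrome. Iron is thus a substrate of the pathway, and it is also a cofactor of several of its enzymes, among them the cyclase CRD1. Because free porphyrins produce singlet oxygen in light, plants keep a tight hold on the trunk, and in leaves chlorophyll made in excess or in senescence is taken apart by a dedicated breakdown route.

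Expression is given as RPKM, reads scaled to transcript length and library size, so levels can be compared between genes of an organ. The tables of the organs were normalised separately, so levels in rosettes and roots are set side by side only. Fold changes are log2 differences of log2(RPKM + 0.5), Fe-deficient minus control, with the standard error (SE) from limma, and a gene is called lower or higher at an adjusted p under 0.05 over all genes of the organ. Replicates of a group correlated between 0.9771 and 0.988 in rosettes and between 0.9791 and 0.9862 in roots. The treatment was visible in the iron reporters: FER1, a ferritin that stores iron, was at 7.42 to 8.88 RPKM in Fe-deficient rosettes, against 186.44 to 289.12 RPKM in control rosettes. The 9 markers of green tissue summed to 23680 to 25980 RPKM in Fe-deficient rosettes and 23920 to 25460 RPKM in control rosettes, and to 98.31 to 115.8 RPKM in Fe-deficient roots and 137.2 to 158.5 RPKM in control roots, where RBCS2B and LHCB1.1 stayed under 1 RPKM. The 8 root markers summed to 3296 to 3415 RPKM in Fe-deficient roots and 3341 to 3385 RPKM in control roots. PYK10 makes up most of the root sums and has the same 2926.32 RPKM in all 6 root libraries, so these sums could hardly differ. EXP7, a root hair expansin, was at 26.27, 26.23 and 18.81 RPKM in Fe-deficient roots, against 16.73, 15.75 and 14.72 RPKM in control roots, with no overlap and no call (0.57 on the log2 scale, adjusted p 0.0656). In rosettes the 8 root markers summed to 137.5 to 172.8 RPKM in the Fe-deficient group and 150.7 to 172.8 RPKM in the control group. PYK10, SCR, SHR and NRT2.1 were expressed there, at means between 6.22 and 131 RPKM, while CASP1, COBL9, EXP7 and TIP2.3 averaged under 1 RPKM.

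In Fe-deficient rosettes, transcripts at the entry of the pathway and at the first step of chlorophyll b breakdown were far lower, and most genes between them lay near their control level. Of the 47 genes, 44 passed the filter of 1 RPKM in rosettes. Called lower were 4 of them (HEMA1, HEMA2, PCB2 and NYC1) and called higher was 0, where 1.96% of all tested rosette genes were called, 1.28% lower and 0.679% higher. HEMA1 and NYC1 were called and at least 2-fold lower, as were 0.389% of all tested genes. At an unadjusted p under 0.05 there were 15 members, or 34.1% of those tested, beside 16.2% of all tested genes. Every Fe-deficient library lay below every control library for 16 members, or 36.4% of those tested, where 11.4% of all tested genes did so. The median log2 fold change was -0.13 in the trunk, -0.16 in the chlorophyll branch, -0.030 in the heme and bilin branch and -0.031 in the breakdown branch, beside 0.0010 over all tested genes.

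**Figure D1:**
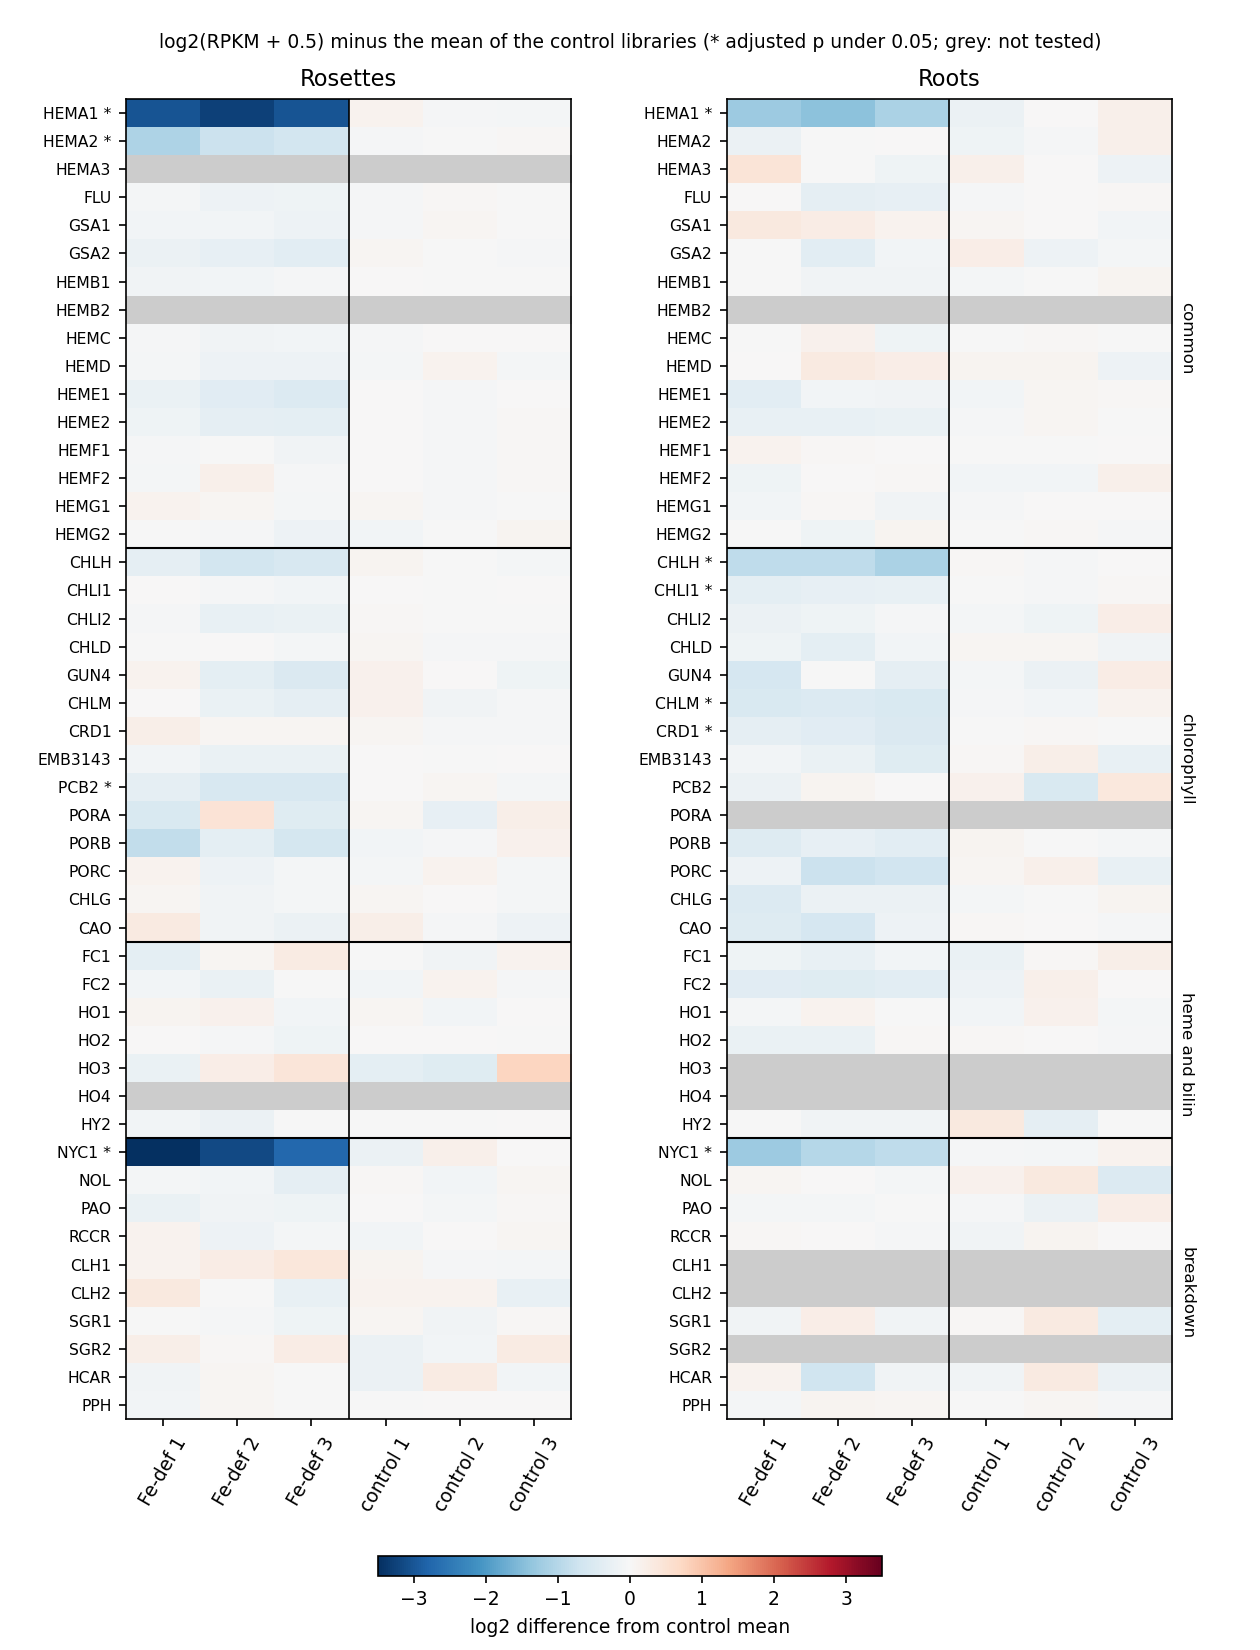
Each row is 1 of the 47 genes in pathway order, each column a library, and the colour is log2(RPKM + 0.5) minus the mean of the 3 control libraries of that organ. HEMA1 and NYC1 are dark in all 3 Fe-deficient rosette libraries and paler in the Fe-deficient root libraries, the chlorophyll branch of roots is pale blue through most of its rows, and the heme and bilin rows show little colour apart from HO3, whose control libraries differ among themselves. Genes that were not tested, HO4 among them, are grey.

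HEMA1 (AT1G58290, chr1:21623700-21626402), which encodes the main glutamyl-tRNA reductase of green tissue, was expressed at 32.44, 27.56 and 32.59 RPKM in Fe-deficient rosettes, against 292.05, 259.78 and 254.04 RPKM in control rosettes. The groups lay far apart, and the Fe-deficient level was 11.5% of the control level. The change of HEMA1 was -3.10 on the log2 scale (SE 0.0872, adjusted p 2.31e-05), the 12th largest fall among the 243 rosette genes called lower. In order of level among the 47 genes, HEMA1 stood at place 32 in Fe-deficient rosettes and at place 5 in control rosettes. HEMA2 (AT1G09940, chr1:3236908-3239554), which encodes a second glutamyl-tRNA reductase known from roots and other tissue with little chlorophyll, had 5.88, 7.57 and 8.23 RPKM in Fe-deficient rosettes, against 12.72, 12.99 and 13.3 RPKM in control rosettes. It fell by 0.82 on the log2 scale (SE 0.123, adjusted p 0.0334), again with no overlap between groups. This call was lost without control replicate 1, 2 or 3 (adjusted p 0.139, 0.137 and 0.134) and without Fe-deficient replicate 2 (0.105). It was also lost without a filter on low values (0.121) and with a replicate block (0.0781). HEMA1 made up 84.66%, 78.45% and 79.84% of the summed HEMA1 and HEMA2 RPKM in Fe-deficient rosettes, against 95.83%, 95.24% and 95.03% in control rosettes. HEMA3 was at 0.28 to 0.70 RPKM in Fe-deficient rosettes and 0.39 to 0.79 RPKM in control rosettes, too low to be tested.

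The upstream sequences of the reductase genes are shown because they differ so widely in response. Each is the 300 bases before the RefSeq gene start (TAIR10.1), read along the gene's strand, for HEMA1 chr1:21626403-21626702 and for HEMA2 chr1:3239555-3239854, both on the minus strand. Capitals mark ACGTG on either strand, the core of the G-box and of abscisic acid response elements.
HEMA1: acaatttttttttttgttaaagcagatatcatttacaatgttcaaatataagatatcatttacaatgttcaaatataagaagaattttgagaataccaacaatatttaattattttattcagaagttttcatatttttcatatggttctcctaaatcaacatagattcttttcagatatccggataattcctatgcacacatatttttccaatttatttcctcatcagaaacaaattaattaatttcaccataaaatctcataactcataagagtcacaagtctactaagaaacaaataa
HEMA2: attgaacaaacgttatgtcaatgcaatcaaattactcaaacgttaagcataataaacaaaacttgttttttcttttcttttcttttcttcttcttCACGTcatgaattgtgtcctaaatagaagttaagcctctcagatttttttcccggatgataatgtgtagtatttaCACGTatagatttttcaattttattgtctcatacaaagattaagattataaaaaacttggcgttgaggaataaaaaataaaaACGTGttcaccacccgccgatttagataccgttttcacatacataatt
HEMA2 holds 3 matches to ACGTG, at 205, 130 and 48 bases before its start, and HEMA1 holds 0. In 27443 protein-coding genes, 25.6% have at least 1 match in this window, as do 17 of the 47 members. A match is only a match of letters. Also searched on both strands were CACGTG, with 0 matches in either window, and AAAATATCT, with 0 as well. The letters CCAATC and GATAAG gave 0 matches in both windows, where 12.2% and 14.5% of promoters hold them.

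**Figure D2:**
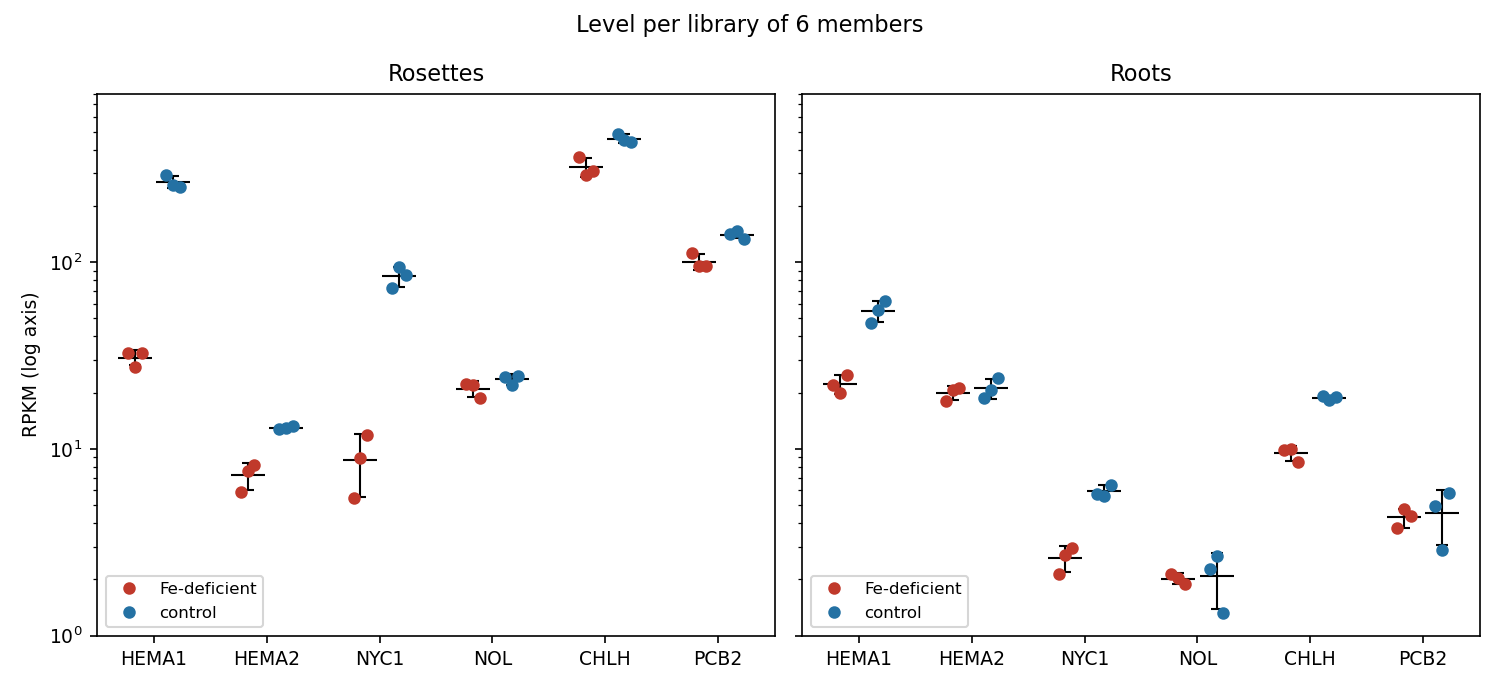
Points are the RPKM of single libraries on a log axis, Fe-deficient left of control for each gene, and bars are the mean ± SD (n = 3). HEMA1 and NYC1 are separated widely from their controls in rosettes and less widely in roots, NOL overlaps in both organs, and HEMA2 and PCB2 overlap in roots but not in rosettes.

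FLU (AT3G14110), the protein that restrains glutamyl-tRNA reductase in the dark, was at 99.26, 92.84 and 95.05 RPKM in Fe-deficient rosettes, against 101.9, 108.94 and 104.5 RPKM in control rosettes. The groups did not overlap, but the difference was small and was not called (log2 fold change -0.13, SE 0.0456, adjusted p 0.231). FLU shares 45 bases with a gene on the other strand. Behind the reductase, 11 tested trunk genes ranged from -0.38 to 0.04 on the log2 scale and none was called. The lowest were HEME1 and HEME2, the uroporphyrinogen decarboxylases, and GSA2, a glutamate-1-semialdehyde aminotransferase. HEME1 was at 103 ± 9.1 RPKM in Fe-deficient rosettes and 134 ± 3.5 RPKM in control rosettes (SD, n = 3; log2 fold change -0.38, adjusted p 0.0616). HEME2 changed by -0.26 (adjusted p 0.102) and GSA2 by -0.29 (adjusted p 0.0784). The calls of these 3 genes depended on the model: HEME1 passed without Fe-deficient replicate 1 (0.0229), as did HEME2 (0.043), and with array weights all 3 passed. The other aminotransferase GSA1, the porphobilinogen enzymes HEMB1 and HEMC, HEMD, the coproporphyrinogen oxidases HEMF1 and HEMF2 and the protoporphyrinogen oxidases HEMG1 and HEMG2 lay between -0.13 and 0.04. HEMB2 was listed at 0.04 RPKM in every rosette library. Part of HEMB1, 12.2% of its exonic stretches of 50 bases, occurs elsewhere in the genome, so its value is uncertain.

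In the chlorophyll branch of rosettes, 1 of 14 tested genes was called, where 1.96% of all tested genes were. A negative log2 fold change was found for 13 of the 14, and for 49.7% of all tested genes. PCB2 (AT5G18660, chr5:6220710-6222300), the divinyl reductase that gives chlorophyll its ethyl side chain, was at 111.82, 95 and 95.38 RPKM in Fe-deficient rosettes, against 142.15, 146.06 and 133.3 RPKM in control rosettes, with no overlap. It fell by 0.48 on the log2 scale (SE 0.077, adjusted p 0.0417). The call was lost without control replicate 1, 2 or 3 (0.168, 0.155 and 0.106) and without Fe-deficient replicate 2 or 3 (0.139 and 0.144). It was also lost without a filter on low values (0.136), without the mean-variance trend (0.0763) and with a replicate block (0.0922). PORB and CHLH had lower means with larger spread. PORB, the protochlorophyllide oxidoreductase that acts through the light period, was at 330.86, 472.22 and 391.47 RPKM in Fe-deficient rosettes, against 563.78, 580.65 and 666.04 RPKM in control rosettes (log2 fold change -0.61, SE 0.139, adjusted p 0.108). CHLH (GUN5), the porphyrin-binding subunit of magnesium chelatase, was at 367.15, 294.64 and 309.14 RPKM in Fe-deficient rosettes, against 485.13, 451.95 and 437.57 RPKM in control rosettes (-0.51, SE 0.0923, adjusted p 0.0598). Neither overlapped between groups. CHLH was called without Fe-deficient replicate 1 (adjusted p 0.0161) and with a filter at a mean of 5 RPKM (0.0281). CHLH also passed with array weights (0.0202) and in 1 fit of all 12 libraries (0.00869). In that fit PORB was called too (0.0163) and PCB2 was not (0.245), so the genes called in this branch depended on the model.

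The other chelatase genes stayed near their control level in rosettes. CHLI1, the main ATPase subunit, was at 398 ± 13 RPKM in Fe-deficient rosettes and 410 ± 3.57 RPKM in control rosettes, CHLI2 changed by -0.17, CHLD by -0.02 and GUN4, the chelatase activator, by -0.24, with adjusted p between 0.274 and 0.897. The methyltransferase CHLM changed by -0.18, EMB3143, a Ycf54-like partner of the cyclase, by -0.19, and the chlorophyll synthase CHLG by -0.04, none of them called. PORC changed by -0.04 and PORA, the isoform of dark-grown seedlings, had 2.82 to 6.24 RPKM in Fe-deficient rosettes and 3.45 to 5.08 RPKM in control rosettes. In several of these genes the first Fe-deficient library stood above the others: GUN4 had 182.09, 131.23 and 117.67 RPKM in Fe-deficient rosettes, against 183.37, 166.87 and 150.53 RPKM in control rosettes. GUN4 also shares 946 bases with a gene on the other strand, and whether counting used strand is not given in the sources used here.

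Of the genes whose enzymes need iron as a cofactor or substrate, 0 of 6 were called in rosettes. This is near the share of 1.96% over all tested rosette genes. In roots 1 of the 6 was called, CRD1, and all 6 had a negative log2 fold change. Over all tested root genes 5.87% were called and 54.4% were negative. CRD1 (AT3G56940, chr3:21076505-21078443), the di-iron cyclase that closes the fifth ring of chlorophyll, had 1053.98, 971.45 and 965.99 RPKM in Fe-deficient rosettes, against 971.45, 893.6 and 893.6 RPKM in control rosettes. It was the most abundant of the 47 transcripts in both groups, the groups overlapped, and the log2 fold change was 0.12 (95% interval -0.03 to 0.27, adjusted p 0.413). CAO, the Rieske oxygenase that makes chlorophyll b, had 143.16, 105.2 and 99.49 RPKM in Fe-deficient rosettes, against 133.54, 111.41 and 101.98 RPKM in control rosettes (-0.01, 95% interval -0.41 to 0.39). PAO (ACD1), the Rieske oxygenase that opens the ring in breakdown, had 39.36, 42.26 and 41.63 RPKM in Fe-deficient rosettes, against 46.48, 44.34 and 47.57 RPKM in control rosettes (-0.17, 95% interval -0.29 to -0.05, adjusted p 0.186). PAO did not overlap between groups, and CAO overlapped. HCAR, an iron-sulfur flavoprotein that completes the return of chlorophyll b to chlorophyll a after the chlorophyll b reductase, had 21.26, 24.53 and 23.07 RPKM in Fe-deficient rosettes, against 20.29, 28.22 and 21.91 RPKM in control rosettes (-0.02, 95% interval -0.34 to 0.30).

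The branch that consumes iron directly, heme and bilin synthesis, had 0 of 6 tested members called in rosettes, and 0 at an unadjusted p under 0.05. Over all tested rosette genes the shares were 1.96% and 16.2%, so counts of 0 in so few genes are near those shares. The ferrochelatase FC1 was at 27.02, 36.15 and 41.81 RPKM in Fe-deficient rosettes, against 34.03, 31.74 and 37.81 RPKM in control rosettes, and FC2, the ferrochelatase of photosynthetic tissue, at 49.29, 45.44 and 52.26 RPKM in Fe-deficient rosettes, against 50.11, 58.24 and 51.41 RPKM in control rosettes. The 95% intervals of their log2 fold changes were -0.40 to 0.40 for FC1 and -0.31 to 0.07 for FC2, so a change of 2-fold in either direction lies outside both. FC1 is overlapped by 126 bases of a locus on its own strand. HO1 (TED4, HY1), the main heme oxygenase of phytochrome synthesis, was at 122 ± 10.8 RPKM in Fe-deficient rosettes and 117 ± 7.11 RPKM in control rosettes, and HO2 and HY2, the phytochromobilin synthase, changed by -0.06 and -0.10. HO3 was at 1.72 to 2.97 RPKM in Fe-deficient rosettes and 1.44 to 3.88 RPKM in control rosettes. HO4, under the filter, had the same 0.17 RPKM in each Fe-deficient rosette library, against 1.27, 0.51 and 0.76 RPKM in control rosettes.

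Chlorophyll breakdown in rosettes held the largest fall of all 47 genes. NYC1 (AT4G13250, chr4:7684156-7687006), a chlorophyll b reductase that starts the breakdown of chlorophyll b and of the antenna, was at 5.46, 8.94 and 11.91 RPKM in Fe-deficient rosettes, against 72.84, 94.1 and 84.95 RPKM in control rosettes. The groups lay far apart, and the Fe-deficient mean was 10.4% of the control mean. NYC1 fell by 3.24 on the log2 scale (SE 0.267, adjusted p 0.00299), the 11th largest fall among the rosette genes called lower. Its partner NOL, which forms the same reductase with NYC1, was at 22.23, 22.05 and 18.74 RPKM in Fe-deficient rosettes, against 24.35, 21.88 and 24.54 RPKM in control rosettes. NOL overlapped between groups and was not called (-0.17, 95% interval -0.38 to 0.04, adjusted p 0.409). NYC1 made up 19.72%, 28.85% and 38.86% of the summed NYC1 and NOL RPKM in Fe-deficient rosettes, against 74.95%, 81.13% and 77.59% in control rosettes, and the more abundant of the pair was NOL in every Fe-deficient rosette library and NYC1 in every control rosette library.

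The upstream sequences of NYC1 and NOL are shown for the same reason as those of the HEMA genes, 300 bases each before the RefSeq gene start (TAIR10.1), for NYC1 chr4:7687007-7687306 on the minus strand and for NOL chr5:1434474-1434773 on the plus strand. Capitals mark ACGTG and AAAATATCT, the evening element of clock-regulated genes, on either strand.
NYC1: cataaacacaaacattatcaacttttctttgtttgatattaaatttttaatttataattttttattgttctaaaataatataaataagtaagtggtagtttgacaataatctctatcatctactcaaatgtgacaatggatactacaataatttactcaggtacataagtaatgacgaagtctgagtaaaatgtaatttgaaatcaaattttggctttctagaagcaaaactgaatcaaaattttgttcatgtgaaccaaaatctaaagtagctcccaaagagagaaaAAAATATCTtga
NOL: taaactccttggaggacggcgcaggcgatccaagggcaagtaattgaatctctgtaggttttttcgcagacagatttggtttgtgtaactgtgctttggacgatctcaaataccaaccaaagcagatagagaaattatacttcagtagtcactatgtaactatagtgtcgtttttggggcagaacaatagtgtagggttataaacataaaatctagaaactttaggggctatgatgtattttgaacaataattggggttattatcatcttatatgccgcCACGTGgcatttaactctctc
NYC1 holds AAAATATCT 12 bases before its start, as 2.79% of 27443 promoters hold it anywhere in the window, and PORA and PORB are the other members with it. NOL holds a full G-box, CACGTG, which contains ACGTG on both strands, at 21 bases before its start, where 7.09% of promoters and 8 of the 47 members have CACGTG.

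The remaining 8 breakdown genes were not called in rosettes, with log2 fold changes between -0.17 and 0.26. CLH1, a chlorophyllase, was the highest, at 68.6, 75.63 and 82.26 RPKM in Fe-deficient rosettes, against 66.72, 61.5 and 60.04 RPKM in control rosettes, with no overlap and an adjusted p of 0.186. SGR1 (NYE1), the stay-green magnesium dechelatase, was at 12.6 ± 0.662 RPKM in Fe-deficient rosettes and 13.3 ± 1.05 RPKM in control rosettes, and PPH, the pheophytinase, at 44.2 ± 2.61 RPKM in Fe-deficient rosettes and 44.5 ± 0.586 RPKM in control rosettes. SGR2, CLH2 and RCCR (ACD2), the red chlorophyll catabolite reductase, changed by 0.17, 0.02 and -0.04. The 6 senescence markers summed to 21.64 to 51.2 RPKM in Fe-deficient rosettes and 52.15 to 83.89 RPKM in control rosettes. SAG12, the defining marker of late senescence, was listed at 0.04 RPKM in all 12 libraries. Of 5 tested, 4 had a negative log2 fold change, where 49.7% of all tested genes did. Every Fe-deficient library lay below every control library for 3 of the 5, NAP, ORE1 and SEN1, where 11.4% of all tested genes did so. ORE1 (-1.05, adjusted p 0.242) and SEN1 (-0.37, adjusted p 0.223) were not called. SAG13, at 1.41, 11.18 and 11.96 RPKM in Fe-deficient rosettes, against 18.73, 9.12 and 38.14 RPKM in control rosettes, overlapped between groups. WRKY53 was the exception in sign, at 5.57, 14.93 and 18.69 RPKM in Fe-deficient rosettes, against 6.25, 6.18 and 10.13 RPKM in control rosettes, also with overlap (0.64, adjusted p 0.554). Of these markers only the transcription factor gene NAP (AT1G69490) was called, at 3.2, 5.35 and 5.25 RPKM in Fe-deficient rosettes, against 18.32, 13.09 and 11.15 RPKM in control rosettes (-1.53, adjusted p 0.0424), and it lost the call without any of the 6 libraries (adjusted p 0.0624 to 0.146). The part of senescence in the change of NYC1 was not tested. In whole organs, fewer cells of a type and less RNA per cell cannot be told apart.

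In roots, the same pair of genes fell by less, and all 13 tested genes of the chlorophyll branch had a negative log2 fold change. In rosettes 13 of 14 did, and of the 13 tested in both organs only 1, CRD1, was called different between organs. Of the 47 genes, 40 passed the filter, and 6 were called, all lower (HEMA1, CHLH, CHLI1, CHLM, CRD1 and NYC1), where 5.87% of all tested root genes were called, 2.35% lower and 3.52% higher. HEMA1 and NYC1 were again called and at least 2-fold lower, as were 0.291% of all tested genes. At an unadjusted p under 0.05 there were 13, or 32.5% of those tested, beside 21.3% of all tested genes. Every Fe-deficient library lay below every control library for 11 members, or 27.5% of those tested, beside 14.1% of all tested genes. The median log2 fold change was -0.053 in the trunk, -0.31 in the chlorophyll branch, -0.13 in the heme and bilin branch and -0.0021 in the breakdown branch, beside -0.018 over all tested genes.

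HEMA1 was at 22.1, 19.85 and 24.93 RPKM in Fe-deficient roots, against 47.49, 55.15 and 61.94 RPKM in control roots, with no overlap. It fell to 40.6% of the control level, a fall by 1.28 on the log2 scale (SE 0.12, adjusted p 0.00147). HEMA2 was at 18.05, 20.78 and 21.13 RPKM in Fe-deficient roots, against 18.75, 20.59 and 23.99 RPKM in control roots, an overlapping pair (-0.07, 95% interval -0.33 to 0.18). HEMA1 thus made up 55.04%, 48.86% and 54.13% of the summed RPKM of the reductase pair in Fe-deficient roots, against 71.69%, 72.81% and 72.08% in control roots. HEMA3 was at 1.45 to 2.5 RPKM in Fe-deficient roots and 1.41 to 1.94 RPKM in control roots. FLU was at 20.5, 16.35 and 16.72 RPKM in Fe-deficient roots, against 19.77, 20.53 and 21.21 RPKM in control roots (-0.20, adjusted p 0.298). No other trunk gene was called: 12 of them ranged from -0.25 for HEME2 to 0.24 for GSA1, whose adjusted p were 0.0732 and 0.141, and HEMB2 stayed under 0.4 RPKM.

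The chlorophyll branch of roots had a negative log2 fold change in 13 of 13 tested genes, also when the libraries were rescaled to a common upper quartile, where 54.4% of all tested genes had one. The clearest was CHLH (AT5G13630, chr5:4387307-4392429), at 9.91, 10.01 and 8.52 RPKM in Fe-deficient roots, against 19.25, 18.28 and 18.86 RPKM in control roots. The groups did not overlap, and CHLH fell to 50.4% of control (-0.95 on the log2 scale, SE 0.0834, adjusted p 0.00104). CHLM (AT4G25080, chr4:12876822-12878703) was at 8.95, 9.28 and 8.91 RPKM in Fe-deficient roots, against 12.79, 12.19 and 14.25 RPKM in control roots (-0.51, SE 0.0828, adjusted p 0.0173). CRD1 was at 18.8, 17.66 and 16.43 RPKM in Fe-deficient roots, against 23.15, 23.83 and 23.02 RPKM in control roots (-0.40, SE 0.0692, adjusted p 0.0223). CHLI1 (AT4G18480, chr4:10201672-10203469) was at 14.7, 15.36 and 15.5 RPKM in Fe-deficient roots, against 18.76, 18.36 and 19.35 RPKM in control roots (-0.30, SE 0.0616, adjusted p 0.0388). None of these 3 overlapped between groups, but each lost its call when certain single libraries were left out. Over all alternatives the log2 fold change stayed between -0.32 and -0.28 for CHLI1, -0.55 and -0.44 for CHLM, and -0.44 and -0.35 for CRD1. Leaving out 1 library also lowered the count of all root genes called, from 1170 to between 523 and 971. CHLI1 lost its call without any of the 6 (adjusted p 0.0829 to 0.131), CHLM without control replicate 3 (0.0501) or Fe-deficient replicate 1, 2 or 3 (0.0715, 0.0652 and 0.0622), and CRD1 without control replicate 1, 2 or 3 (0.0554, 0.0968 and 0.0641) or Fe-deficient replicate 2 or 3 (0.0872 and 0.0599).

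**Figure D3:**
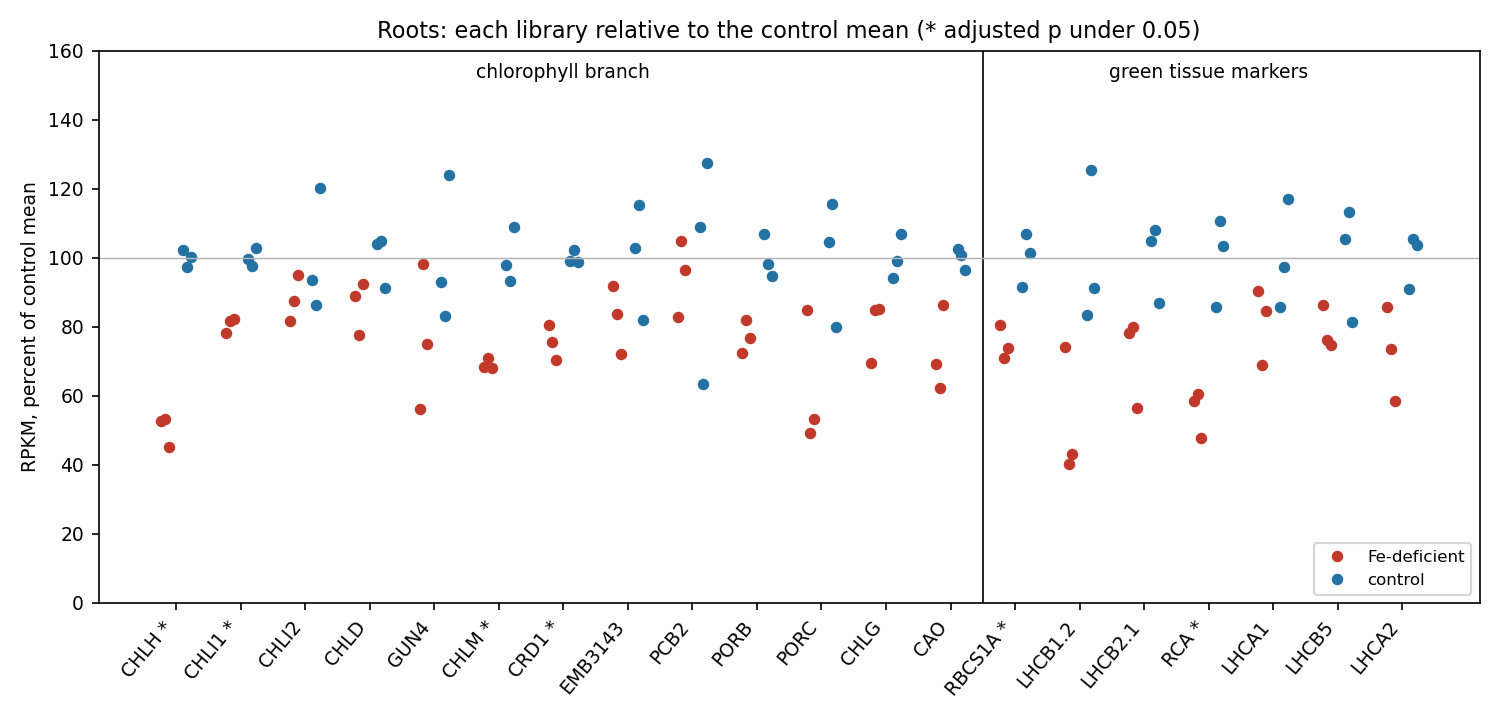
Points are single root libraries as percent of the control mean of each gene, Fe-deficient left of control, for the 13 tested genes of the chlorophyll branch and 7 tested markers of green tissue. The Fe-deficient libraries of CHLH lie near the 50.4% of its mean and those of RCA near 55.6%. Those of most other genes of both sets lie below 100%. Every Fe-deficient library lies below every control library for 7 of the 13 and 5 of the 7, where 14.1% of all tested root genes do so.

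Other genes of that branch had lower means without a call. PORB was at 10.9 ± 0.676 RPKM in Fe-deficient roots and 14.1 ± 0.87 RPKM in control roots (-0.36, adjusted p 0.0541), and CHLG changed by -0.31 and PORC by -0.54 (adjusted p 0.166 and 0.197). CAO was at 2.67, 2.41 and 3.34 RPKM in Fe-deficient roots, against 3.96, 3.9 and 3.73 RPKM in control roots (-0.41, adjusted p 0.14). CHLI2, CHLD, GUN4, EMB3143 and PCB2 lay between -0.30 and -0.03, and PORA was listed at or under 0.13 RPKM. CRD1 shares 259 and 147 bases with loci on the other strand, CHLI1 shares 116 and CHLM 37. The neighbour of CHLM, AT4G25090, rose by 0.81 in roots (adjusted p 0.00837), while those of CHLI1 and CRD1 that were tested were not called (-0.04 and 0.09).

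Markers of green tissue also had lower means in Fe-deficient roots. Of the 9, 7 were tested in roots and all 7 had a negative log2 fold change, with a median of -0.46, and 2 were called. Over all tested root genes 54.4% were negative and 5.87% were called. RCA (AT2G39730), the activase of Rubisco, was at 14.05, 14.48 and 11.47 RPKM in Fe-deficient roots, against 20.57, 26.53 and 24.78 RPKM in control roots (-0.82, adjusted p 0.0133). RBCS1A (AT1G67090), the small subunit of Rubisco, changed by -0.41 (adjusted p 0.0326). RCA lost its call without control replicate 2 or 3 (0.0673 and 0.0531), and RBCS1A without control replicate 2 or 3 (0.118 and 0.0972) or Fe-deficient replicate 1, 2 or 3 (0.0557, 0.122 and 0.0969). In rosettes 0 of the 9 were called, where 1.96% of all tested rosette genes were. But RCA has the same value in all 6 libraries and RBCS1A is at 7618.66 RPKM in each library of Fe-deficient rosettes, against 6504.34, 7618.66 and 6504.34 RPKM in control rosettes, so tied values leave little room for a change to show. The part of green tissue in the root changes of the chlorophyll branch and of HEMA1 was not tested.

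In the heme and bilin branch of roots 0 of 5 tested genes were called, and 1 had an unadjusted p under 0.05. Over all tested root genes the shares were 5.87% and 21.3%. FC1 was the most abundant of the 47 transcripts in roots, at 91.46, 84.95 and 94.63 RPKM in Fe-deficient roots, against 85.22, 102.97 and 117.27 RPKM in control roots, with overlap (-0.16, 95% interval -0.44 to 0.11). FC2 was at 5.57, 5.41 and 5.69 RPKM in Fe-deficient roots, against 6.52, 8.57 and 7.51 RPKM in control roots, without overlap (-0.40, 95% interval -0.67 to -0.13, adjusted p 0.1). FC1 made up 94.2% ± 0.166 of the summed ferrochelatase RPKM in Fe-deficient roots and 93.1% ± 0.845 in control roots, and 41.4% ± 5.18 in Fe-deficient rosettes and 39.4% ± 3.67 in control rosettes (SD, n = 3 each). HO1, the second most abundant member in roots, was at 88.8 ± 6.01 RPKM in Fe-deficient roots and 88 ± 7.98 RPKM in control roots. HO2 and HY2 changed by -0.13 and -0.09, and HO3 and HO4 did not exceed 0.31 RPKM.

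Of the breakdown genes in roots, 7 were tested and 1 was called, where 5.87% of all tested root genes were called. NYC1 was at 2.14, 2.72 and 2.96 RPKM in Fe-deficient roots, against 5.74, 5.62 and 6.44 RPKM in control roots, with no overlap, at 43.9% of control (-1.06, SE 0.135, adjusted p 0.00612). NOL overlapped, at 2.15, 2.03 and 1.89 RPKM in Fe-deficient roots, against 2.27, 2.67 and 1.32 RPKM in control roots. PAO was at 2.46, 2.46 and 2.55 RPKM in Fe-deficient roots, against 2.52, 2.2 and 3.17 RPKM in control roots (-0.05, adjusted p 0.877). HCAR, at 1.95, 0.89 and 1.59 RPKM in Fe-deficient roots, against 1.59, 2.34 and 1.46 RPKM in control roots, changed by -0.24 (adjusted p 0.66). SGR1, RCCR and PPH lay between -0.0021 and 0.04, and CLH1, CLH2 and SGR2 were under the filter.

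The organs were set against each other through the difference of their log2 fold changes, over 39 members tested in both. It passed for 4 members, where 3.48% of 17680 genes passed, and 8 had an unadjusted p under 0.05, or 20.5%, beside 16.4% of all genes tested in both. Rosettes had the larger fall in 3 of them. For NYC1 the difference, rosette minus root, was -2.19 (SE 0.299, adjusted p 0.00358), for HEMA1 -1.82 (SE 0.148, adjusted p 1.49e-05) and for HEMA2 -0.74 (SE 0.164, adjusted p 0.0244). CRD1 was the other way round, at 0.51 (SE 0.0924, adjusted p 0.0067), with a value of 0.12 in rosettes and -0.40 in roots. Some rosette values of CRD1 are tied between libraries, which may narrow its spread. CHLH had a log2 fold change of -0.51 in rosettes and -0.95 in roots, and this difference of 0.45 did not pass (adjusted p 0.0735). PCB2, called in rosettes alone, was not shown to differ between organs (-0.45, SE 0.247, adjusted p 0.422). The difference of HEMA2 was lost without rosette control replicate 1, 2 or 3 (0.0711, 0.0723 and 0.0792), rosette Fe-deficient replicate 2 (0.0528), root control replicate 2 (0.0628) and root Fe-deficient replicates 2 and 3 (0.0638 and 0.0556).

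**Figure D4:**
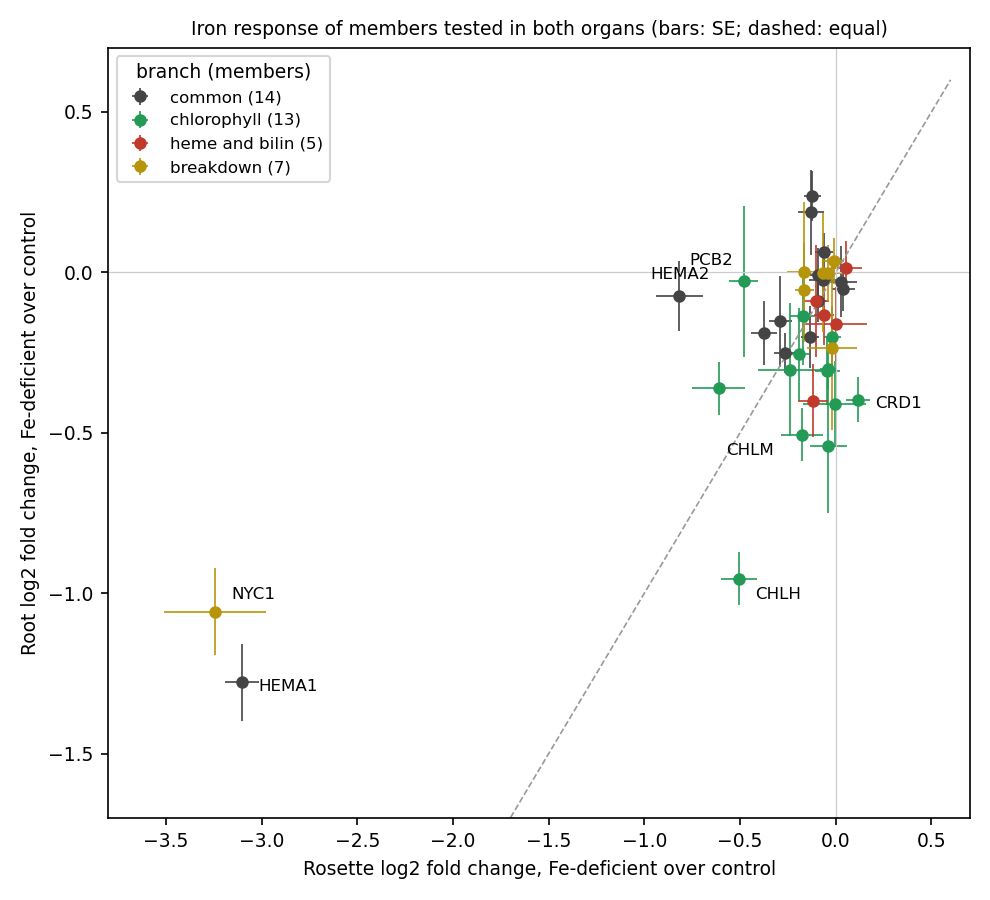
Each point is 1 of the 39 members tested in both organs, with its rosette log2 fold change on the x axis, its root log2 fold change on the y axis and bars of 1 SE; the dashed line marks equal values. HEMA1 and NYC1 stand apart at the lower left, left of the line, CHLH lies right of it, and the other members lie between -0.82 and 0.12 in rosettes.

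Genes beside the 47 were taken from 2 lists. Of 12 genes that feed or leave the pathway, 12 were tested in rosettes with 1 lower, and 11 in roots with 3 lower, and 0 were higher in either organ. Over all tested genes, 1.28% were called lower in rosettes and 2.35% in roots. UPM1 (AT5G40850), the methyltransferase that takes the ring from the trunk to siroheme, the iron cofactor of nitrite and sulfite reductases, was lower in both. It was at 45.13, 45.46 and 52.18 RPKM in Fe-deficient rosettes, against 92.82, 93.68 and 86.34 RPKM in control rosettes (-0.93, SE 0.0706, adjusted p 0.00205), and at 71.77, 71.19 and 70.75 RPKM in Fe-deficient roots, against 103.3, 107.58 and 102.59 RPKM in control roots (-0.55, SE 0.0458, adjusted p 0.000847). The groups lay apart in both organs. SIRB, the ferrochelatase of siroheme, was not called in either (-0.21 and 0.15). The geranylgeranyl reductase gene AT1G74470, which makes the phytyl tail, fell by 0.53 in roots (adjusted p 0.0315), and LIL3.2, which anchors that reductase, by 0.32 (adjusted p 0.0424). AT1G74470 lost its root call without any library but control replicate 3 (adjusted p 0.0769 to 0.104), and LIL3.2 without any of the 6 (0.0913 to 0.128).

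Of 9 regulators, 9 were tested in rosettes and 5 in roots. GNC (AT5G56860), a GATA factor that promotes greening, was lower in rosettes, at 16.8 ± 0.199 RPKM in Fe-deficient rosettes and 23.7 ± 1.79 RPKM in control rosettes (-0.48, adjusted p 0.0223). GLK2 (AT5G44190), a GARP factor that activates chlorophyll genes, was lower in roots, at 2.42, 3.57 and 3.19 RPKM in Fe-deficient roots, against 5.84, 4.99 and 5.84 RPKM in control roots (-0.78, adjusted p 0.0328), and not in rosettes (0.20). The difference of GLK2 between organs passed (0.98, SE 0.176, adjusted p 0.0104). GNC and GLK2 each lost the call without any of the 6 libraries of the organ (adjusted p 0.0526 to 0.102 and 0.0538 to 0.0991). CGA1, a relative of GNC, was at 17.63, 9.93 and 14.01 RPKM in Fe-deficient rosettes, against 5.43, 6.64 and 4.83 RPKM in control rosettes, and with no overlap was not called (1.2 on the log2 scale, adjusted p 0.0599). GLK1, HY5, PIF1, PIF3, PIF4 and GUN1 were not called in rosettes, nor were HY5, PIF1, PIF3 and GUN1 in roots.

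The authors' deposited table, which does not say whether its p-values are adjusted, gives a p under 0.05 for 5 of the 47 genes in rosettes, HEMA1, CHLH, PCB2, PORB and NYC1, and for 1 in roots, HEMA1. The share of all genes under that p was not computed, so these counts only describe. In the authors' deposited table, the rosette log2 fold changes are -3.12 for HEMA1, -3.26 for NYC1, -0.6 for PORB and -0.5 for CHLH, and the root values are -1.3 for HEMA1, -1.19 for NYC1 (p 0.25) and -0.99 for CHLH (p 0.08). HEMA2 in rosettes has a p of 0.2 in the authors' deposited table.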

How the data were processed

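Polyadenylated RNA of 12 Arabidopsis samples was sequenced, and the authors deposited a table for each organ with 6 columns of normalised values. No header names the unit. Multiplied by RefSeq transcript length in kilobases, the deposited values sum to between 1125582 and 1131654 per library, so they were taken as RPKM (reads scaled to transcript length and library size). Per the submitters' processing notes, bcl2fastq 1.8.4, Trimmomatic 0.35, Bowtie2 2.0.6, edgeR 3.12.1, limma 3.26.9 and the genome build TAIR10 were used, with no role or order given. Counting, annotation and use of strand are not given in the sources used here. Several highly expressed genes have the same value in more than 1 library (RCA has 2616.5 RPKM in each rosette library), so the distributions appear to have been equalised between libraries, which would narrow the spread of such genes. Depth is unknown, and no counting interval is given.

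The same deposited tables hold the authors' own p-value, from a Z-test per the file headers, beside the authors' log2 fold change.

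Within each organ, genes that averaged 1 RPKM or more across the 6 libraries were compared as log2(RPKM + 0.5) with limma 3.58.1 in R 4.3.3 (mean-variance trend, two-sided, Benjamini-Hochberg over all genes tested), and called at an adjusted p under 0.05. This scale understates changes of low genes. The difference between organs is the difference of the log2 fold changes, with Satterthwaite degrees of freedom, adjusted over 17680 genes. The functions were tested on simulated data. With 3 libraries a group, the smallest p of an exact permutation test is 0.1. The alternatives were other pseudocounts, filters, scaling, weights and variance models, a replicate block, 1 fit of all 12 libraries, and leaving out each library. All 47 members are named; full values are given for called members, for members that use iron, and for HEMA1, HEMA2 and FLU. Of the other lists, the called genes with the largest changes are named, at most 5 a list. The members and lists were chosen with earlier results of these data known. Sequences and coordinates are from RefSeq, assembly TAIR10.1.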

Additional observations from a re-analysis of the deposited data

Results flagged for a closer look

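Of the 39 members tested in both organs, 4 responded differently to iron deficiency in rosettes and roots, by a test of the difference itself. Over all 17680 genes tested in both, 3.48% did so. The rosette minus root difference of log2 fold changes was -1.82 for HEMA1, -2.19 for NYC1, -0.74 for HEMA2 and 0.51 for CRD1. HEMA1 and NYC1 fell in both organs, HEMA2 was called in rosettes, and CRD1 was called in roots. The differences of HEMA1, NYC1 and CRD1 passed in every alternative in which they were tested, and that of HEMA2 in 13 of 21. CRD1 has tied rosette values, which may narrow its spread. It has 971.45 RPKM in a library of each group and 893.6 RPKM in control replicates 2 and 3.

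Outside the 47 genes, the difference also passed for UPM1 (-0.38), GLK2 (0.98), and the markers of green tissue RBCS1A (0.56) and RCA (0.82). RCA is tied at 2616.5 RPKM in all rosette libraries, so its rosette value cannot show a change, and RBCS1A takes only the values 7618.66 and 6504.34 RPKM there, so both differences rest on tied rosette values. UPM1 passed in 10 of 21 alternatives, RBCS1A in 14 of 21, RCA in 19 of 21 and GLK2 in 20 of 20.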

How the results depend on the processing

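The calls of HEMA1 and NYC1 in each organ and of CHLH in roots held under every alternative that tested them, and no called value changed direction. The count of 4 members called in rosettes was 2 without a filter on low values, 2 with a replicate block, 8 with array weights and 7 in 1 fit of all 12 libraries, and 2 to 7 when a library was left out. The count of 6 in roots was 3 with the replicate block, 7 with array weights, 9 in the fit of all 12 libraries and 3 to 4 when a library was left out. The count of 4 that differed between organs was 7 in the fit of all 12 libraries and 3 to 4 when a library was left out. Over all genes, the 372 called in rosettes became 559 with array weights, 188 with the replicate block, 562 in the fit of all 12 libraries and 167 to 330 when a library was left out. The 1170 called in roots became 692 without a filter, 1629 in the fit of all 12 libraries and 523 to 971 when a library was left out. The cause was not tested. The replicate numbers were not taken as pairs, since deviations of same-numbered libraries correlated between -0.16 and 0.247 in rosettes and between -0.00334 and 0.103 in roots. The unknown depth limits what can be said of genes near or below 1 RPKM, such as CLH2, HO4 and HEMB2.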
